A study of Mus musculus with 8 samples.

Results

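The 10 genes described here encode the cytosolic heat shock chaperones of the HSP70, HSP90 and HSP110 classes, their cochaperones and their main transcriptional activator: Hspa8, Hspa4, Hspa4l, Hsph1, Hsp90aa1, Hsp90ab1, Dnaja1, Dnajb1, Stip1 and Hsf1. They were taken from the count table by gene symbol through GENCODE M21 (Ensembl 96), and all 10 were found among the 21859 gene IDs and passed the filter on low counts, which left 10729 genes for testing. RNA was sequenced from 8 cultures of PER-M60, labelled as a mouse leukaemia line, 4 kept in control medium and 4 in medium conditioned by osteoclasts, the cells that resorb bone. The labels describe no added agent, genotype or time in medium, and the source of the osteoclasts is not given in the sources used here. All cultures are of a single line, so the values describe that line, and the p-values measure only the spread between these samples, which may be technical. In such bulk samples, fewer cells of a kind and less RNA per cell cannot be told apart.

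Cells fold and refold proteins in the cytosol through a relay of chaperones. J proteins such as Dnaja1 and Dnajb1 bring unfolded clients to HSP70 and start its ATPase, HSP110 proteins exchange its nucleotide and so release the client, and Stip1 (also called HOP) bridges HSP70 to HSP90, which completes many kinases and receptors. The transcription factor Hsf1 raises the inducible members under proteotoxic stress by binding heat shock elements, inverted repeats of the unit GAA. Leukaemia cells, like many dividing cells, express the constitutive members strongly.

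Total counts ran from 15391754 to 21637966 per sample, and a floor of 3 counts was worth between 0.139 and 0.195 CPM, the count scaled to the depth of its sample. Normalised CPM also take up a scaling factor between samples (TMM), which ran from 0.990 to 1.013. Precursor B cell genes were high, with Pax5 at 1206 ± 47.7 and 1317 ± 3.95 normalised CPM in the control and conditioned samples (SD, n = 4 each). Among these markers, Cd79a, Cd79b, Pax5 and Vpreb1 rose in osteoclast-conditioned medium, while Rag1, which lies inside another listed gene, had 0 counts in all samples. Of the 8 osteoclast markers, Ocstamp and Dcstamp had 0 counts in every sample, Ctsk had 0 to 5, and the list's summed level was 35.4 to 36.8 normalised CPM in control and 34.1 to 37.5 in osteoclast-conditioned medium; of the 2 tested, Itgb3 fell. The 6 macrophage markers summed to 20.55 to 22.01 and 21.4 to 25.1 normalised CPM, Adgre1 had 0 to 2 counts, and Lyz2 was the 1 of 3 tested that changed (a rise). The mitochondrial share of counts was 0.903 to 1.16% in control and 1.16 to 1.44% in osteoclast-conditioned medium, the highest being replicate 4. The part of these differences in the chaperone results was not tested.

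The chaperone genes took a steady share of counts among the control samples, and most of them were slightly lower in osteoclast-conditioned medium. Together they took 1.001, 1.002, 1.007 and 1.005% of all counts in control replicates 1 to 4, and 0.974, 0.976, 0.949 and 0.939% in osteoclast-conditioned replicates 1 to 4. The means were 1.0036 ± 0.0028% and 0.960 ± 0.018% (SD, n = 4 each), and the samples of the media did not overlap. As a share of the library size after TMM scaling, the difference was -0.029 percentage points, against -0.044 of total counts, and the nearest samples then lay at 9854 (osteoclast-conditioned) and 9878 (control) summed normalised CPM. With edgeR's quasi-likelihood test and a Benjamini-Hochberg adjusted p under 0.05 over all tested genes, 7 of the 10 members were lower and 0 were higher in osteoclast-conditioned medium. Without the adjustment 1 member, Hsp90ab1, was higher at p under 0.05; DESeq2 called 0 higher and limma-voom 1. Among all tested genes 30.5% were called, 14.8% lower and 15.7% higher, so about as many genes rose as fell; with scaling by total counts alone, 40.7% of the calls were rises, against 51.6% here. The samples of the media did not overlap in 7 members and in 28.2% of all tested genes. The median log2 fold change was -0.12 over the members and -0.0087 over all tested genes. In a test against a change of 1.2-fold, Hsph1 was the 1 member called (adjusted p = 0.044).

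**Figure D1:**
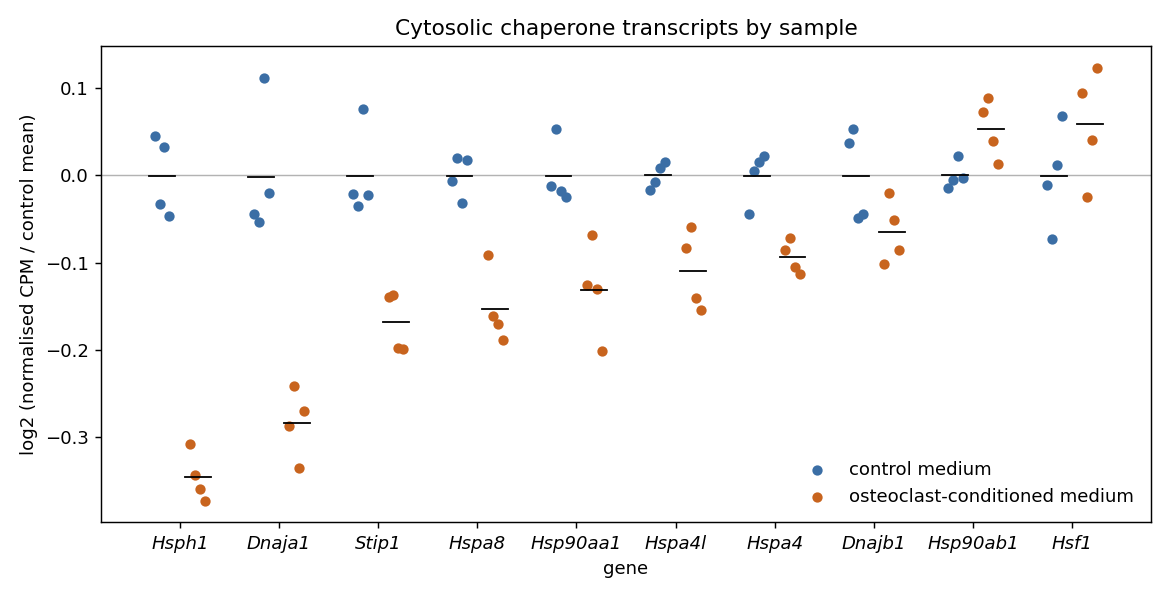
Normalised CPM of each member in each sample, as log2 of the ratio to the gene's control mean; blue points are the 4 control samples, orange points the 4 osteoclast-conditioned samples, and lines their means. The points separate in 7 genes, most widely in Hsph1 (log2 fold change -0.35) and Dnaja1 (-0.28), and overlap in Dnajb1, Hsp90ab1 and Hsf1.

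Per length of transcript, the genes spanned a wide range. In normalised CPM per kb of median coding transcript, Hsp90ab1, the constitutive HSP90, stood at 1999 ± 22.1 in control medium (SD, n = 4), followed by Hspa8, the constitutive HSP70, at 1003 ± 16.6 and by Hsp90aa1, the inducible HSP90, at 372 ± 9.47. Next in level per kb were Stip1 (217 ± 7.88), Hspa4 (117 ± 2.42) and Hsph1 (72.0 ± 2.30), and the lowest levels were those of Dnaja1 (32.9 ± 1.79), Hsf1 (30.7 ± 1.24), Dnajb1 (21.5 ± 0.795) and Hspa4l (11.5 ± 0.116). Over the 8 samples, neighbours in this order did not overlap except Dnaja1 and Hsf1. The order among the low genes rests on the transcript length taken: with all annotated exons as the length, Dnajb1 moves from position 9 to position 7. Hsp90ab1 alone held 50.5 ± 0.347% of the members' counts in control and 54.1 ± 0.224% in the conditioned samples (SD, n = 4 each), with no overlap between the media.

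Among the HSP110 proteins and their relatives, which act as nucleotide exchange factors of HSP70, Hsph1 fell furthest of all members. Hsph1 (ENSMUSG00000029657; chromosome 5, 149614287 to 149636376, minus strand, GRCm38) measured 237, 225, 235 and 223 normalised CPM in control replicates 1 to 4 and 186, 181, 179 and 177 in osteoclast-conditioned replicates 1 to 4. All control samples lay above all osteoclast-conditioned ones, and Hsph1 fell by 21.3% (log2 fold change -0.35, SE 0.03, edgeR adjusted p = 1.64e-10). Hspa4, a constitutive relative, read 526, 544, 548 and 551 against 511, 516, 504 and 501 normalised CPM. The media did not overlap, although control replicate 1 lay near the osteoclast-conditioned samples, and Hspa4 fell by 6.3% (-0.09, SE 0.03, adjusted p = 0.00528). Hspa4l, the least abundant member per kb, read 69.8, 70.2, 71.0 and 71.3 against 66.6, 67.7, 64.0 and 63.4 normalised CPM. The media did not overlap, Hspa4l fell by 7.26% (-0.11, SE 0.04, edgeR adjusted p = 0.0224), and the call was lost without control replicate 4 (adjusted p = 0.066), osteoclast-conditioned replicate 3 (0.0791) or replicate 4 (0.070), and with DESeq2 (0.0579). The count of Hsph1 relative to Hspa4 in the same sample went from 0.424 ± 0.0205 to 0.356 ± 0.0052 (SD, n = 4 each) with no overlap, whereas that of Hspa4l relative to Hspa4 was 0.130 ± 0.0017 and 0.129 ± 0.0023 and overlapped.

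The J proteins Dnaja1 and Dnajb1, which deliver clients to HSP70, differed in their values. Dnaja1 (ENSMUSG00000028410; chromosome 4, 40722150 to 40737149, plus strand) read 143, 142, 160 and 146 normalised CPM in control and 121, 125, 117 and 123 in osteoclast-conditioned medium. Control replicate 3 was the highest sample, yet the lowest control sample still exceeded every osteoclast-conditioned one, and Dnaja1 fell by 17.8% (log2 fold change -0.28, SE 0.03, edgeR adjusted p = 2.57e-07). Of the exon bases of Dnaja1, 7.05% are shared with the listed gene Smu1, so some of its reads may belong to that gene. Dnajb1, the J protein most tied to the stress response, read 64.5, 65.2, 60.8 and 60.9 against 58.6, 62.0, 60.7 and 59.2 normalised CPM. The samples overlapped, and its log2 fold change of -0.07 (95% interval -0.15 to 0.01) did not pass the test (edgeR adjusted p = 0.201). The ratio of Dnaja1 to Dnaja2, another J protein of its class, went from 0.585 ± 0.0201 to 0.511 ± 0.0171 (SD, n = 4 each) with no overlap.

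Promoter sequence was examined for paired heat shock units. RefSeq promoters on GRCm38.p6, 300 bases long with 250 before the start site, were found for 6 of the 10 members (Hsph1, Dnaja1, Dnajb1, Stip1, Hspa4 and Hspa4l); Hsp90aa1, Hsp90ab1, Hspa8 and Hsf1 had no entry. The motifs GAANNTTC and TTCNNGAA, each its own reverse complement and able to overlap each other, were searched. At least 1 of the pair occurs in 15.1% of all 32851 promoter windows (7.86% and 8.52% for each), and in 17% of genes with a window. Of the 6 members, Hsph1 and Dnaja1 held a match, in windows chosen from the annotation and not from the cells' own start sites. The sequences below are shown because these genes had the largest falls, with matched bases in capitals.
Hsph1, chr5:149636337-149636586, minus strand: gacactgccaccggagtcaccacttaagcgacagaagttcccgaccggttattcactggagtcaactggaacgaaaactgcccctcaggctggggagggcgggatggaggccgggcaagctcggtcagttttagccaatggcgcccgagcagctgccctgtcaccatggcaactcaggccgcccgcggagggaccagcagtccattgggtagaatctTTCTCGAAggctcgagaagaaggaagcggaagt
Hsph1, chr5:149636287-149636316, minus strand: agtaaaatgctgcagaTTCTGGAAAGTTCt
Dnaja1, chr4:40722218-40722467, plus strand: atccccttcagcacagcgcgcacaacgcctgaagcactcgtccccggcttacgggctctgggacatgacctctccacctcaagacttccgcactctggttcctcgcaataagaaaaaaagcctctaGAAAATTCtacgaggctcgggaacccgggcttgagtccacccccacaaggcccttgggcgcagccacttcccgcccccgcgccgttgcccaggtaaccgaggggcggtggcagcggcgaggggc

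The first Hsph1 stretch holds TTCTCGAA, which begins 33 bases before the more upstream of its RefSeq start sites. The second, a 30-base piece downstream of it, holds TTCTGGAA and GAAAGTTC sharing 3 bases, so that 3 heat shock units follow in a row. Such a run is found in 0.32% of promoter windows when it begins with TTC. Its reverse complement, which begins with GAA, is found in 0.31%. The Dnaja1 stretch holds GAAAATTC, which begins 124 bases before the first of its RefSeq start sites, and the windows of its other start sites held none. The GENCODE spans given above begin further upstream, at 149636376 for Hsph1 and 40722150 for Dnaja1. TTCTCGAA of Hsph1 and GAAAATTC of Dnaja1 therefore lie inside those gene spans. A match of letters does not show that Hsf1 binds there, and windows with no match may have elements of other spacing or position.

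Hspa8, the abundant constitutive HSP70, and Stip1, its adaptor to HSP90, fell by similar amounts. Hspa8 (ENSMUSG00000015656; chromosome 9, 40800984 to 40810087) read 2203, 2243, 2165 and 2239 normalised CPM in control and 2076, 1979, 1966 and 1940 in osteoclast-conditioned medium. The media did not overlap, osteoclast-conditioned replicate 1 was the nearest to control, and Hspa8 fell by 10.1% (log2 fold change -0.15, SE 0.03, edgeR adjusted p = 3.71e-05). Stip1 read 451, 447, 482 and 451 against 415, 416, 399 and 399 normalised CPM. Control replicate 3 stood above the other control samples, the media did not overlap, and Stip1 fell by 10.96% (-0.17, SE 0.03, edgeR adjusted p = 2.98e-05). The ratio of Stip1 to Hspa8 was 0.207 ± 0.0108 in control and 0.205 ± 0.0043 in the conditioned samples (SD, n = 4 each), which overlapped. Reads of Hspa8 and the HSP90 genes can also match processed copies elsewhere in the genome, and how such reads were counted is not given in the sources used here.

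The cytosolic HSP90 genes had values of opposite sign. Hsp90aa1 (ENSMUSG00000021270; chromosome 12, 110690605 to 110702728), the stress-inducible form, read 1133, 1185, 1128 and 1123 normalised CPM in control and 1047, 1089, 1044 and 993 in osteoclast-conditioned medium. The media did not overlap, and Hsp90aa1 fell by 8.68% (log2 fold change -0.13, SE 0.03, edgeR adjusted p = 0.00057). Hsp90ab1 (ENSMUSG00000023944; chromosome 17, 45567775 to 45573271), the constitutive form, read 4987, 5018, 5117 and 5026 against 5299, 5356, 5175 and 5084 normalised CPM. Control replicate 3 lay above osteoclast-conditioned replicate 4, and the log2 fold change of 0.05 (95% interval 0.0025 to 0.11) did not pass the adjusted threshold (edgeR adjusted p = 0.106). It passed with limma-voom (0.05, adjusted p = 0.0474) and without osteoclast-conditioned replicate 4 (0.07, adjusted p = 0.0326). Within a sample, where the scaling of libraries cancels, the ratio of Hsp90aa1 to Hsp90ab1 counts was 0.227, 0.236, 0.220 and 0.223 in control and 0.198, 0.203, 0.202 and 0.195 in osteoclast-conditioned medium. Every control ratio exceeded every osteoclast-conditioned one, and leaving out any single sample gave differences in the mean ratio from -0.029 to -0.024. Such a ratio shows unequal change and not which gene moved.

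**Figure D2:**
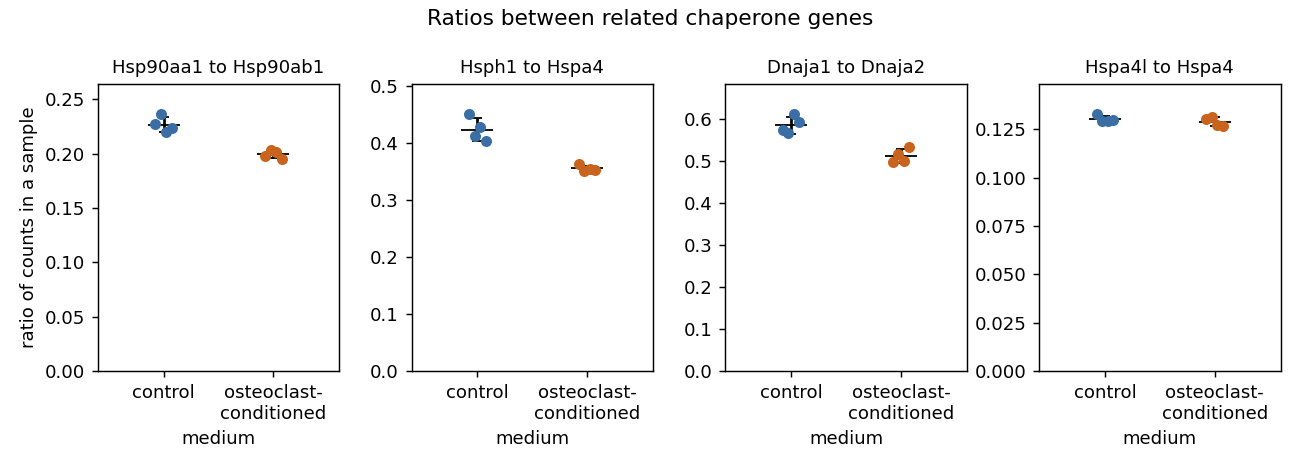
Ratio of counts between related chaperone genes within each sample, for control (blue) and osteoclast-conditioned (orange) samples, with mean and SD in black (n = 4 each). The ratios of Hsp90aa1 to Hsp90ab1, Hsph1 to Hspa4 and Dnaja1 to Dnaja2 do not overlap between the media, and that of Hspa4l to Hspa4 does.

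Hsf1 itself, the activator of the heat shock response, did not pass the test. Hsf1 (ENSMUSG00000022556; chromosome 15, 76477422 to 76501913) read 63.4, 60.8, 64.5 and 67.0 normalised CPM in control and 68.3, 62.9, 65.8 and 69.7 in osteoclast-conditioned medium. The samples overlapped, and the log2 fold change was 0.06 (95% interval -0.02 to 0.15, edgeR adjusted p = 0.26). Hsf1 acts largely through changes of its protein, which these counts do not measure.

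Other chaperone genes were read from the same fit, in 8 lists of 82 genes, of which 71 were tested. Of these, 23 fell, 2 rose and 46 did not pass, and the median log2 fold change was -0.05. Over all tested genes 30.5% were called, 14.8% lower and 15.7% higher, with a median of -0.0087. Of the 18 HSP90 cochaperones, which load and time the HSP90 cycle and form the longest list, 9 fell and 9 did not pass. The largest were Ahsa2, a relative of the HSP90 ATPase activator (19.9 ± 0.373 to 14.3 ± 0.568 normalised CPM, SD, n = 4 each; log2 fold change -0.48), Ppid (-0.19), a cyclophilin, and Cdc37l1 (-0.19). Of the exon bases of Ahsa2, 47.2% are shared with Usp34, and the call of Cdc37l1 was lost without control replicate 4 (edgeR adjusted p = 0.0508) or osteoclast-conditioned replicate 1 (0.0562).

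Among 10 other J proteins tested, Dnaja2 fell (-0.09), a call that was lost without control replicate 3 (edgeR adjusted p = 0.0721), osteoclast-conditioned replicate 3 (0.0659) or replicate 4 (0.0692). Of 9 HSP70 regulators, the ubiquitin ligase Stub1 (-0.16) and the cochaperone St13 (-0.09) fell. The call of Stub1 was lost without control replicate 1 (edgeR adjusted p = 0.0668) or osteoclast-conditioned replicates 1 (0.0615) or 2 (0.0526), and that of St13 without osteoclast-conditioned replicates 3 (0.0525) or 4 (0.0639); 46.2% of the span of Stub1 lies in Jmjd8. Of 6 other cytosolic HSP70 genes tested, Hspa1l fell (-0.56, SE 0.18, edgeR adjusted p = 0.0177, 377 counts in all samples); it was named after its values were seen. Among 3 tested small heat shock proteins, Hspb6 fell (-0.36), and 5 of the 10 listed, Hspb2, Hspb3, Hspb7, Cryaa and Cryab, had 0 counts in all samples. Hspb1, a known target of Hsf1, had at most 1 count per sample. Hsf2, a second heat shock factor, fell (-0.19, edgeR adjusted p = 0.0353), and its call was lost with DESeq2 (0.106), with no filter on low counts (0.0562), and without control replicate 1 (0.101) or 4 (0.094) or osteoclast-conditioned replicate 2 (0.0953), 3 (0.057) or 4 (0.0874).

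Of 14 chaperonin and prefoldin genes, which fold actin and tubulin, Pfdn4 (-0.31), Pfdn2 (-0.17) and Cct8 (-0.11) fell, Cct4 rose (0.10) and 10 did not pass, a share called near that of all tested genes (30.5%). Of the exon bases of Pfdn2, 27.6% are shared with Klhdc9. Among 8 counterparts in the endoplasmic reticulum and mitochondria, 5 fell and 1 rose. Hspa5, the HSP70 of the endoplasmic reticulum, fell by 0.51 on the log2 scale (SE 0.03), Hsp90b1, its HSP90, by 0.38 and Hyou1, its HSP110, by 0.29. The first pair had larger log2 falls than the cytosolic Hspa8 (-0.15) and Hsp90aa1 (-0.13), and Hyou1 lay between Hspa4 (-0.09) and Hsph1 (-0.35); the differences between these values were not tested. Trap1 and Hspd1 of the mitochondria fell by 0.08 each and Hspa9, the mitochondrial HSP70, rose by 0.19; these, and Cct4, were named after their values were seen.

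**Figure D3:**
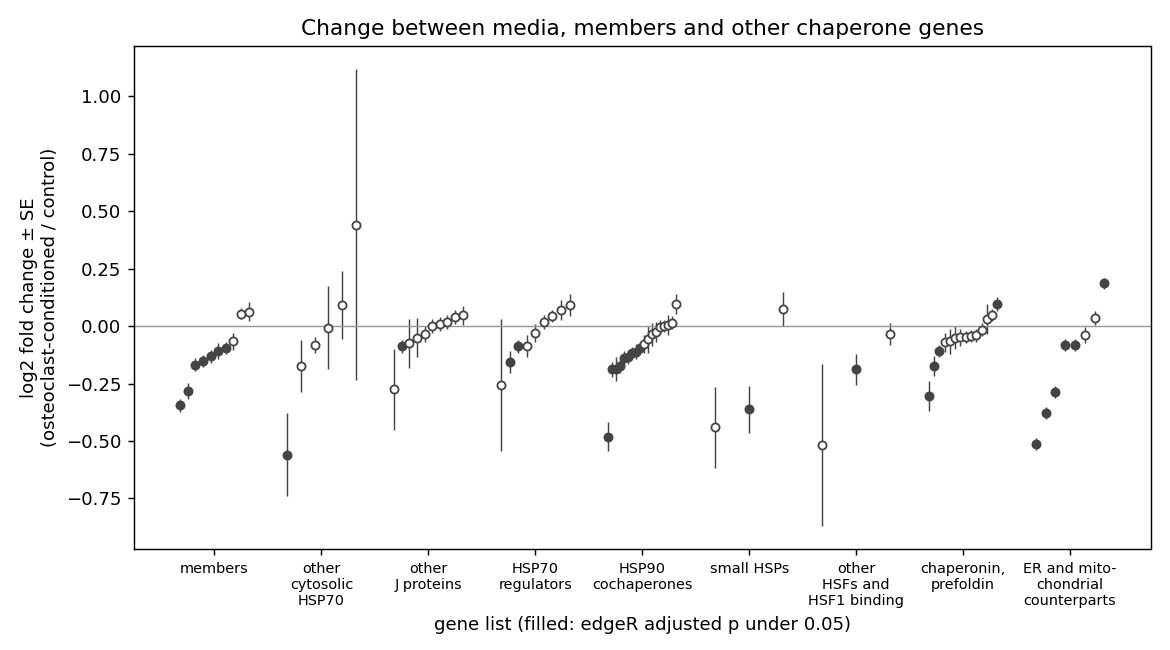
Log2 fold change (osteoclast-conditioned over control) with its standard error for the 10 members and 71 other tested chaperone genes, by list; filled points have an edgeR adjusted p under 0.05. Filled points lie below 0 in every list except for Cct4 (0.10) and Hspa9 (0.19).

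The replicates of a medium agreed closely for the members. The coefficient of variation (CV) among the 4 samples of a medium ran from 1.00% (Hspa4l) to 5.46% (Dnaja1) in control and from 1.33% (Hspa4) to 4.48% (Hsf1) in osteoclast-conditioned medium, with medians of 2.87% and 2.63%; over all tested genes, most of which have fewer counts, the medians were 4.91% and 4.18%. Counting alone would give 0.33% for Hsp90ab1 and 0.502% for Hspa8 in control, below the 1.11% and 1.65% observed, whereas for Dnajb1 it would give 2.97% beside the 3.70% observed, and for Hspa4l 2.81% beside 1.00%. Against the spread fitted for genes of like abundance, Dnaja1, Hsp90aa1, Stip1 and Hsf1 lay above the trend and 6 members below it, a share of 40% where 44.2% of all tested genes lay above. Dnaja1 had the widest spread for its level, at percentile 86.7 of tested genes, and Hspa4l the narrowest, at percentile 10.2.

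Within osteoclast-conditioned medium, the samples split by small amounts. In replicates 1 and 2, 8 of 10 members lay above the medium's mean, with mean deviations of 0.018 and 0.020 in log2 CPM. In replicates 3 and 4, 8 of 10 lay below it, with -0.017 and -0.021. The share of all tested genes that split likewise was not computed, so the split may not be particular to the members. In control medium the mean deviations were -0.0083, -0.0070, 0.019 and -0.0032, the highest being replicate 3, where Dnaja1 (0.11) and Stip1 (0.08) stood out. Osteoclast-conditioned replicate 4, with the lowest member share, was also the sample with the highest mitochondrial share (1.44%); the part of that in its values was not tested. The members did not all move as a block: over the 8 samples, each member's deviations were compared with the mean of the other 9, and Pearson's r was 0.945 for Hsp90ab1, 0.840 for Hspa4l and 0.811 for Stip1, but -0.423 for Dnajb1 and -0.496 for Hsf1. These are descriptions, since the samples share their scaling and 8 points are few.

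**Figure D4:**
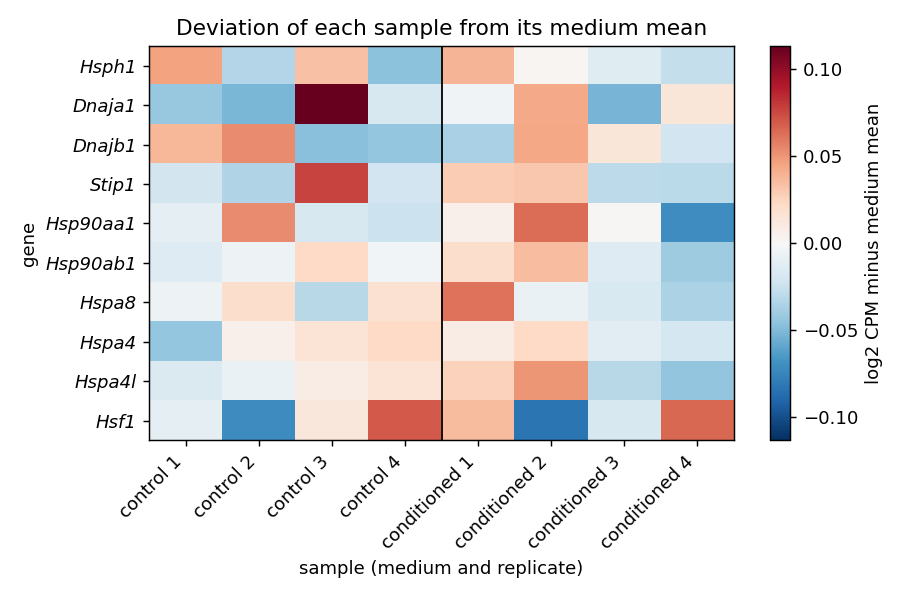
Deviation of each sample from the mean of its medium in log2 CPM (colour) for the 10 members (rows) in the 8 samples (columns; the line parts the media). Osteoclast-conditioned replicates 1 and 2 are mostly above 0 and replicates 3 and 4 mostly below, and the largest deviation is that of Dnaja1 in control replicate 3 (0.11).

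The spread was of another size in Hspa1b, a stress-inducible HSP70 that is not among the 10 genes and was singled out after its values were seen. It had 20, 36, 28 and 11 counts in control replicates 1 to 4 and 59, 50, 14 and 7 in osteoclast-conditioned replicates 1 to 4, or 1.18, 1.66, 1.81 and 0.621 against 3.00, 2.99, 0.752 and 0.408 normalised CPM. The ranges of the media overlapped. Osteoclast-conditioned replicates 1 and 2 lay above every control sample, replicate 4 below every one and replicate 3 among them. The log2 fold change was 0.44 with an SE of 0.68 (edgeR adjusted p = 0.676). Its CV was 40.7% in control and 78.4% in osteoclast-conditioned medium, where counting alone would give 20.5% and 17.5%. Pooled over the media, that CV (62.5%) ranked 1 of 10729 tested genes, and its spread relative to the abundance trend ranked 21. In osteoclast-conditioned medium the samples with many Hspa1b counts, replicates 1 and 2, were those in which most members lay above their mean. The mean deviation of the members was about 0.02 in log2 there, and that of Hspa1b was 1.11 in each. Single members ran from -0.083 (Hsf1) to 0.063 (Hsp90aa1), both in replicate 2. Hspa1a, a nearly identical neighbour, had 0 to 4 counts, and reads that match both genes may have been dropped or divided, so the level of either is uncertain. Immediate early genes, which respond to handling, summed to 184 to 190 normalised CPM in control and 184 to 200 in osteoclast-conditioned medium. Of the 10 tested, Atf3 rose (0.88) and the others did not pass, among them Junb (69.9 ± 0.526 and 70.7 ± 3.25 normalised CPM, SD, n = 4 each) and Ier2 (54.6 ± 1.23 and 57.8 ± 1.97). Within osteoclast-conditioned medium, 4 of the 10 (Fos, Jun, Zfp36 and Nr4a1) were higher in both replicates 1 and 2 than in replicates 3 and 4, as Hspa1b was; these were picked out after their values were seen. Nr4a1, which encodes an inducible nuclear receptor, had 21, 24, 11 and 7 counts there, a CV of 53.2% where counting alone would give 25.2%. Fos had 17, 14, 8 and 10 counts, with a CV of 30.8% near the 28.6% of counting alone. The CVs of Jun (6.19%) and Zfp36 (2.65%) lay below the 6.57% and 4.01% of counting alone. The share of all tested genes with the same order of replicates was not computed. The part of handling in the spread of Hspa1b was not tested.

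**Figure D5:**
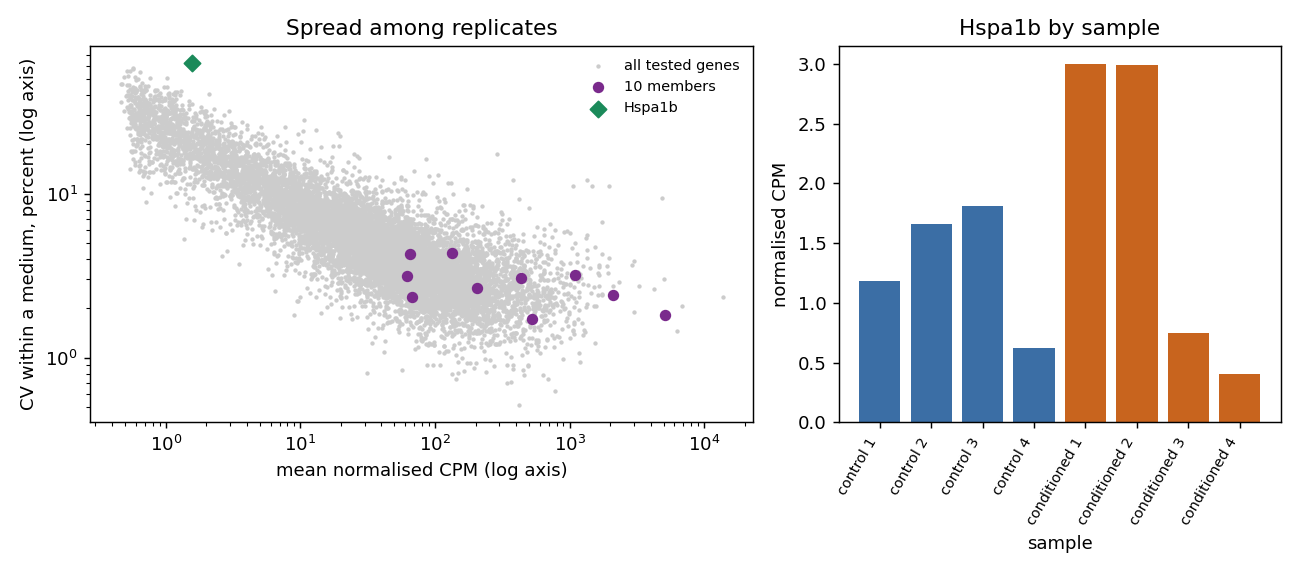
Left, CV within a medium (root mean square over the media) against mean normalised CPM for all 10729 tested genes (grey), the 10 members (purple) and Hspa1b (green), both axes logarithmic. Right, Hspa1b in normalised CPM in each sample, control in blue and osteoclast-conditioned in orange; it runs from 0.408 to 3.00 while the members keep CVs of 5.46% or less.

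The genes whose deviations from the medium means were most like the members' mean, among 6946 other genes of at least 20 normalised CPM, were Tpt1 (Pearson r = 0.986 over 8 samples), Fth1 (0.985), Zfp35 (0.984), Npat (0.970) and Xpnpep3 (0.959). Between the media these behaved differently: Fth1, the ferritin heavy chain, rose (log2 fold change 0.22, edgeR adjusted p = 3.10e-07), and the other 4 did not pass, with log2 fold changes from -0.02 for Npat to 0.09 for Xpnpep3. The other chaperone genes in this ranking numbered 55, of which 3 were among the 50 most alike, and their median r was 0.343, against 0.0261 over all genes ranked. Hspe1, the mitochondrial cochaperonin, came next in the ranking (0.954). The r values of the named genes are the highest of 6946, each over 8 samples. They were picked for their size and not tested, so they are descriptions.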

How the data were processed

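Per the submitters' processing notes, the tools named were STAR 2.7.5a and featureCounts 2.0.1 with build mm10; their settings, the annotation, the use of strand and the treatment of reads with several matches are not given in the sources used here. The deposited values are raw counts per Ensembl gene ID, with no normalization by the authors. All 8 columns were matched to samples by position, and the header of each is the number in its sample's description. Extraction used the RNeasy Plus Mini Kit and library preparation SureSelect HS2, per the labels' protocols. The members and lists were chosen with earlier results of these data known. A result from the precursor B marker list is not reported here.

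Of 21859 IDs, 21817 matched GENCODE M21 (GRCm38). Counts were filtered with filterByExpr, scaled by TMM and tested with edgeR 4.0.16 in R 4.3.3 (glmQLFit, robust, then glmQLFTest; Benjamini-Hochberg over 10729 genes; threshold 0.05), after testing the script on simulated data. Standard errors are the absolute log2 fold change over the square root of F, and 95% intervals use the total degrees of freedom. Normalised CPM are CPM of TMM-scaled library size; log2 CPM used a prior count of 2. Spread is the gene's own quasi-likelihood dispersion over the fitted trend.

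Named besides the members were, from each chaperone list, up to 3 called genes of at least 5 CPM with the largest change, the 2 most abundant immediate early genes, and the 5 genes most like the members. Alternatives were other scalings and filters, DESeq2 1.42.0, limma-voom (limma 3.58.1), no robust estimation, a replicate block, the 10 most abundant genes left out, a test against 1.2-fold, an adjusted p under 0.01, and each sample left out. The leave-one-out values of the Hsp90aa1 to Hsp90ab1 ratio and the other estimates of the Hspa1b spread were chosen after seeing the data. Sequences are from RefSeq (GRCm38.p6). Python 3.11.15 and matplotlib 3.10.9 were used for sequences and figures.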

Additional observations from a re-analysis of the deposited data

Results flagged for a closer look

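In 64 groups of 4 samples (each named gene, ratio or share in each medium), the gap between the highest or lowest sample and its nearest neighbour was set against the group's range, and 3 gaps passed Dixon's 95% critical value, where chance gives about 3.2. All were in control medium. In replicate 3, Stip1 stood at 482 normalised CPM, above the 447 to 451 of the others (gap 0.887 of the range). In replicate 2, Hsp90aa1 stood at 1185, above 1123 to 1133 (0.840). The ratio of Hspa4l to Hspa4 stood at 0.133 in replicate 1, above 0.129 to 0.130 (0.856). Dnaja1 in control replicate 3 (160 normalised CPM) came near, with a gap of 0.806. Stip1 and Hsp90aa1 were called lower in osteoclast-conditioned medium in each fit that left out a single sample.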

How the results depend on the processing

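The log2 fold changes of the 10 members and of 14 named chaperone genes kept their sign under all alternatives run; Hsp90ab1 was not tested with the 10 most abundant genes left out, since it is among them. The 7 members called became 1 (1 lower) in the test against 1.2-fold, and the number called higher became 1 with limma-voom. Of the other chaperone genes, 25 called became 3 against 1.2-fold (3 lower, 0 higher), and the 2 called higher became 1 with total counts only and 1 at an adjusted p under 0.01. The member share difference of -0.0441 percentage points became -0.0295 of TMM-scaled library size. Leaving out single samples gave 6 to 7 members called (6 to 7 lower, 0 to 1 higher), 19 to 27 other genes (18 to 25 lower, 1 to 3 higher), 3 to 6 members above the spread trend and share differences of -0.0494 to -0.0372. With the replicate block, 7 members (7 lower, 0 higher) and 26 other genes (24 lower, 2 higher) were called and 3 members lay above the trend. The numbers were not taken as pairs: deviations of same-numbered samples correlated at -0.0507 to 0.143. The cause of these shifts was not tested; fewer samples or a stricter threshold by construction lower some counts. By DESeq2, the gene-wise dispersion of Hspa1b was 0.453 against a trend of 0.0406, and scaled by total counts its highest and lowest samples differed 2.90-fold in control and 7.29-fold in osteoclast-conditioned medium. Hspa1a and Hspb1 had too few counts to be tested.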
